A study of Mus musculus with 11 samples.

Results

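The hypoxia inducible genes described here are 33 genes of the oxygen-sensing pathway: the hypoxia inducible factors (HIFs), the enzymes that govern them, and genes that these factors are known to induce. They were chosen by name, with earlier results of these data known. Of the 33 genes 20 were measured, of 8234 genes measured in all. A gene was measured when a probe named for it was above background (detection p under 0.01) on at least 5 of 11 arrays, and a gene with several such probes is shown by the one with the highest mean. The measured genes were each above background on at least 4 arrays of both groups.

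The RNA was from villi of the small intestine, taken from mice of strain C57Bl/6J at 5 months of age, and each sample was hybridised to its own Illumina bead array. The Villin-Gremlin group (n = 5) carries Gremlin, which binds and blocks bone morphogenetic proteins outside the cell, as a transgene named for the Villin promoter, which is active in the intestinal epithelium; the wild type group (n = 6) has the same strain and age. No label gives the sex of the mice, the gut segment or the oxygen tension, and none ties an array to an animal, so the p-values rest on sample-to-sample spread that may be technical. The design text counts 6 mice in each group, and 5 Villin-Gremlin arrays were analysed here. Values are log2 normalized signals, and fold changes are Villin-Gremlin over wild type from the limma fit over all measured genes with Benjamini-Hochberg adjustment, a gene being called at an adjusted p under 0.05.

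Cells sense oxygen through prolyl hydroxylases of the EGLN family, which mark the HIF alpha subunits for capture by the von Hippel-Lindau protein and destruction. When oxygen is short, the alpha subunits persist, pair with ARNT and bind short DNA elements in genes for glucose use, blood vessel growth and mitochondrial adjustment. The intestinal epithelium works at low oxygen, with the tip of the villus the least oxygenated, and HIF2 alpha in enterocytes is known to drive genes of iron uptake.

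By their representative probes, 7 of the 20 measured genes were called higher and 4 lower in Villin-Gremlin villi. This is 55% of them, beside 33.9% of all genes tested. The same 33.9% is the share to set beside the counts of every other list below. The genes and lists were chosen with earlier results of these data known, so these counts are descriptions. Hif1a is among the 4 lower calls, and its other probe, which passed the detection filter through the Villin-Gremlin group alone, was called higher. Increases made up 17.9% and decreases 16% of all genes tested. The median log2 fold change of the measured genes was 0.03, from -0.83 to 2.20, and that of all genes was -1e-04. Of the 20 genes, 11 had a positive and 9 a negative log2 fold change. Among the called genes 5 changed at least 2-fold, all of them higher, where 10.1% of all genes were called at that size. Egln3 is among these 5 at 2.001-fold, and its log2 fold change was 0.58 with the mean of its kept probes. The groups did not overlap for 8 of the 20 genes, beside 20.5% of all genes.

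**Figure D1:**
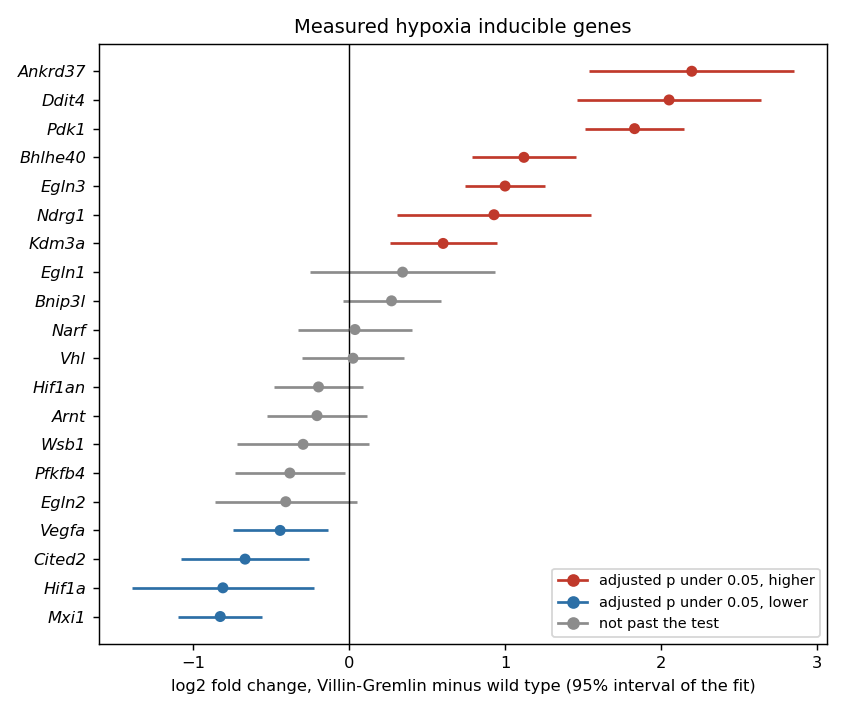
Log2 fold changes of the 20 measured hypoxia inducible genes (points) with the 95% interval of the limma fit (lines), Villin-Gremlin minus wild type, coloured by whether the adjusted p was under 0.05. Ankrd37, Ddit4 and Pdk1 stand highest, between 1.83 and 2.20, and Mxi1 and Hif1a lowest, at -0.83 and -0.81.

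Among the HIF subunits, Hif1a gave opposite calls from its probes, Arnt did not pass the test and Epas1 was not measured, and of the 5 measured hydroxylase and ligase genes that govern them only Egln3 passed. Arnt, the partner that every HIF alpha subunit needs to bind DNA, ran from 8.90 to 9.45 in Villin-Gremlin and from 8.91 to 9.67 in wild type villi, with a log2 fold change of -0.21 ± 0.15 (SE, limma adjusted p = 0.317). Its other kept probes read -0.35 and -0.34. Vhl, the substrate receptor that captures hydroxylated HIF alpha, differed by 0.03 (95% interval -0.30 to 0.35, limma adjusted p = 0.916). Hif1an, the asparaginyl hydroxylase that blocks the activation domain of HIF alpha, differed by -0.20 (95% interval -0.48 to 0.09). Epas1, which encodes HIF2 alpha, was above background on 2 of 5 Villin-Gremlin and 1 of 6 wild type arrays with the better of its probes and was not tested.

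The representative Hif1a probe read 8.01, 7.95, 6.40, 7.73 and 8.32 on Villin-Gremlin arrays 1 to 5, and 8.35, 8.45 and 8.68 as the lowest, median and highest of the wild type arrays. All Villin-Gremlin arrays lay below all wild type arrays, by a margin of a few hundredths for array 5 and by far the most for array 3. The log2 fold change was -0.81 ± 0.27 (SE, limma adjusted p = 0.0346). Without Villin-Gremlin 3 it was -0.49 with an adjusted p of 0.0200 in limma. The call was lost without Villin-Gremlin 4 or wild type 3, 4 or 5 (limma adjusted p = 0.0575, 0.0557, 0.0666 and 0.0628) and with no detection filter (0.0723).

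The other kept probe of Hif1a read 6.99, 7.05, 7.89, 7.26 and 7.56 on Villin-Gremlin arrays 1 to 5 and was above background on all 5. On the wild type arrays it read 4.60 to 4.90 and was above background on 0 of 6. In the background-corrected values it was at least 2.43-fold higher in Villin-Gremlin villi (limma adjusted p = 5.57e-07 over all kept probes). The bound is set by the lowest signal that counted as above background on each wild type array. Before correction its raw signals were 267 to 381 on the Villin-Gremlin and 151 to 182 on the wild type arrays. The probe passed the detection filter through the Villin-Gremlin group alone, so it had to differ and its p-value adds no support. Averaging both probes gave a log2 fold change of 0.89 (limma adjusted p = 2.64e-04), opposite in sign to the representative probe, a size that rests on wild type signals below background. The sources used here do not say which part of the transcript each probe covers, so no direction is given for Hif1a as a gene. Among the 9 measured genes with several kept probes, Hif1a was the only one with probes of opposite sign.

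**Figure D2:**
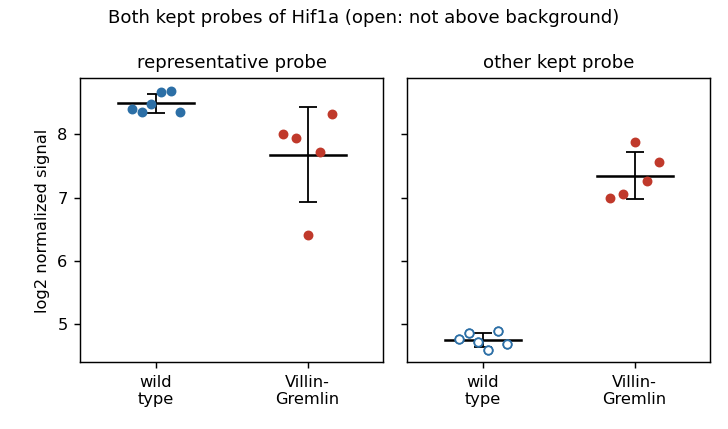
Log2 normalized signal of both kept Hif1a probes on every array (points, wild type blue, Villin-Gremlin red, open where not above background) with mean and SD. The representative probe falls from a mean of 8.49 to 7.68, while the other rises from below background, at 4.75, to 7.35.

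Of the 3 prolyl hydroxylase genes, only Egln3 passed the test. Egln3, itself a HIF target that closes a feedback loop, read 12.18, 11.99, 12.04, 12.07 and 12.22 on Villin-Gremlin arrays 1 to 5, and 10.80, 11.07 and 11.33 as the lowest, median and highest wild type values. The groups were separated by more than the range within either one. Egln3 rose by 1.00 ± 0.12 on the log2 scale (SE, limma adjusted p = 5.44e-05). Its other kept probes were dim, with 5.89 to 7.05 in Villin-Gremlin villi, and differed by 0.35 and 0.38 without passing. With the mean of all its kept probes Egln3 rose by 0.58 (limma adjusted p = 0.00929). Egln1, the main oxygen-dependent hydroxylase of HIF1 alpha in most tissues, was above background on 4 arrays of each group, and Egln2 on all arrays. They differed by 0.34 ± 0.27 and -0.41 ± 0.21 (limma adjusted p = 0.365 and 0.157), and Egln2 passed with array weights (-0.53, limma adjusted p = 0.0488). With array 1 of the Villin-Gremlin group left out Egln1 was at 0.12, and with array 3 left out at 0.58. Egln2 was at -0.25 when array 2 of that group was left out.

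Pdk1 had the smallest p of the list. It encodes a kinase that switches off pyruvate dehydrogenase and so keeps pyruvate from entering the citric acid cycle, and it is a textbook HIF1 target. Pdk1 read 9.96, 9.66, 9.67, 9.63 and 9.32 on Villin-Gremlin arrays 1 to 5, and 7.45, 7.80 and 8.10 as the lowest, median and highest wild type values. Every Villin-Gremlin array stood more than a log2 unit above every wild type array. The increase was 3.56-fold (log2 fold change 1.83 ± 0.15 SE, limma adjusted p = 3.47e-06). Over the alternatives tried it lay between 1.32 and 1.91.

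The sister kinases went the other way. Pdk2, Pdk3 and Pdk4 fell, with log2 fold changes of -1.27 ± 0.20, -1.38 ± 0.31 and -1.70 ± 0.38 (SE, limma adjusted p = 4.01e-04, 0.00400 and 0.00423). Pdk4, which fasting and fat supply are known to induce, was higher on arrays 4 and 5 of the Villin-Gremlin group (8.33 and 8.86) than on the other Villin-Gremlin arrays (7.04 to 7.21), and array 5 lay within the wild type range. Pdp2, a phosphatase that switches the complex back on, fell too, at -0.90 ± 0.18 (limma adjusted p = 0.00211). The measured subunits of pyruvate dehydrogenase, Pdha1, Pdhb, Dlat and Dld, differed by 0.05 to 0.22 and did not pass. In all, of 9 measured genes on the list of the dehydrogenase, its other kinases and phosphatases and the relatives of Pfkfb3 and Pfkfb4, 0 rose and 4 fell (median 0.05).

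Among the enzymes that make or break fructose 2,6-bisphosphate, which sets the speed of glycolysis, Pfkfb4 differed by -0.38 ± 0.16 (SE, limma adjusted p = 0.0894) and passed only when Villin-Gremlin 2 was left out (-0.47, limma adjusted p = 0.0480). The single Pfkfb3 probe was not above background on any array. The related Pfkfb2 differed by 0.19.

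Ddit4 and Ankrd37 showed the largest increases. Ddit4 (REDD1), a brake on the growth kinase complex mTORC1 that hypoxia and other stresses induce, read 9.44, 10.15, 10.001, 9.26 and 10.77 on Villin-Gremlin arrays 1 to 5, and 7.11, 8.05 and 8.22 as the lowest, median and highest wild type values. Array 5 was highest and array 4 lowest, and all 5 exceeded the wild type range. The increase was 4.15-fold (log2 fold change 2.05 ± 0.27 SE, limma adjusted p = 1.31e-04), between 1.52 and 2.22 on the log2 scale over the alternatives.

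Ankrd37, an ankyrin repeat protein gene widely used as a HIF1 reporter gene, read 11.46, 11.43, 11.60, 11.36 and 11.49 on Villin-Gremlin arrays 1 to 5. The lowest, median and highest wild type values were 7.85, 9.60 and 9.83. Wild type villi were spread widely, with arrays 5 and 6 lowest, while the Villin-Gremlin arrays had an SD of 0.09. It rose 4.59-fold (log2 fold change 2.20 ± 0.30 SE, limma adjusted p = 1.73e-04), and by 1.91 on the log2 scale without wild type 6.

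Deptor, an inhibitor that binds mTOR, rose by 1.10 ± 0.16 (SE, limma adjusted p = 2.29e-04) and Eif4ebp1, a translation repressor that mTORC1 phosphorylates, by 0.88 ± 0.20 (0.00397). The other 7 of 9 measured genes on the mTORC1 list did not pass, among them Mtor at 0.03, Rptor at -0.20, Tsc1 at 0.43 and Tsc2 at -0.06. Sesn1 and Sesn2, stress-induced inhibitors that act upstream of mTORC1, differed by -0.57 and -0.02.

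Bhlhe40 and Ndrg1 rose as well. Bhlhe40 (DEC1), a basic helix-loop-helix repressor that answers both HIF and the circadian clock, read 12.32, 12.60, 12.67, 12.20 and 12.84 on Villin-Gremlin arrays 1 to 5, and 11.07, 11.51 and 11.61 as the lowest, median and highest wild type values. The groups did not overlap. It rose 2.18-fold (log2 fold change 1.12 ± 0.15 SE, limma adjusted p = 1.59e-04). Of 10 measured genes of the circadian clock list, only Cry2 passed, with a log2 fold change of -0.95 ± 0.18 (limma adjusted p = 0.00138), or -0.36 without background correction. Per1, Per2, Dbp and Nr1d1, which swing widely over the day, differed by -0.32, -0.28, -0.59 and -0.79 without passing. The time of day at which tissue was taken is not given in the labels.

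Ndrg1, a stress and differentiation gene of epithelia, read 11.53, 11.91, 11.16, 11.63 and 12.10 on Villin-Gremlin arrays 1 to 5, and 9.44, 10.89 and 11.30 as the lowest, median and highest wild type values. Wild type 1 lay far below the other wild type arrays, and Villin-Gremlin 3 lay within the wild type range. The increase was 1.90-fold (log2 fold change 0.93 ± 0.29 SE, limma adjusted p = 0.0240), with 0.96 from its second probe. It was 0.67 without wild type 1 (limma adjusted p = 0.0112) and 0.56 without wild type 1 and Villin-Gremlin 5 (0.0207). The call was lost without Villin-Gremlin 2 or 5 (limma adjusted p = 0.0540 and 0.0555).

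Kdm3a, a histone demethylase that removes methyl groups from lysine 9 of histone H3, read 10.69, 11.14, 10.34, 10.33 and 10.59 on Villin-Gremlin arrays 1 to 5, and 9.74, 9.9998 and 10.29 as the lowest, median and highest wild type values. The lowest Villin-Gremlin array cleared the highest wild type array by less than 0.05. It rose 1.52-fold (log2 fold change 0.60 ± 0.16 SE, limma adjusted p = 0.0107), its other probes read 0.60 and 0.84, and the call was lost with median scaling (0.46, limma adjusted p = 0.108).

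**Figure D3:**
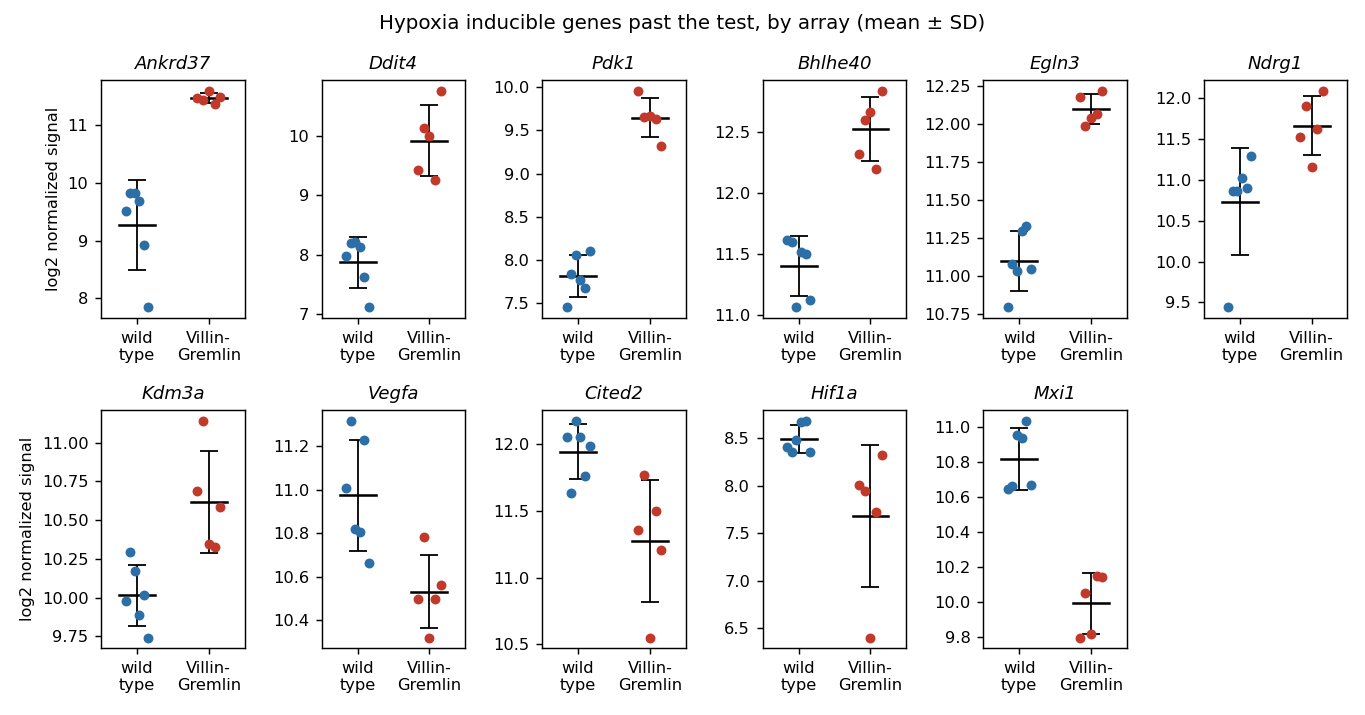
Log2 normalized signal on every array for the 11 hypoxia inducible genes past the test (wild type blue, n = 6, Villin-Gremlin red, n = 5; bars, mean and SD), ordered by fold change, each panel with its own axis that does not start at 0. The groups do not overlap except for Ndrg1, Vegfa and Cited2.

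HIF binds the core letters ACGTG or GCGTG, and the upstream DNA of 4 genes that rose, Ankrd37, Ddit4, Egln3 and Pdk1, is shown for those letters. Bhlhe40 and Ndrg1 had no entry in the promoter table used here, and Kdm3a, which also rose, is not shown. The sequences are the 250 bases before the RefSeq start of each gene (build GRCm38.p6), 5′ to 3′ on the gene's strand, in lower case with each ACGTG or GCGTG in capitals on either strand, where the opposite strand reads CACGT or CACGC. The palindrome CACGTG counts once on each strand, and it is also the E-box that Bhlhe40, Myc and the clock proteins bind. The windows are chr8:45999851-46000100 (minus strand) for Ankrd37, chr10:59951771-59952020 (minus) for Ddit4, chr12:54203875-54204124 (minus) for Egln3 and chr2:71872974-71873223 (plus) for the first of both Pdk1 starts.
Ankrd37: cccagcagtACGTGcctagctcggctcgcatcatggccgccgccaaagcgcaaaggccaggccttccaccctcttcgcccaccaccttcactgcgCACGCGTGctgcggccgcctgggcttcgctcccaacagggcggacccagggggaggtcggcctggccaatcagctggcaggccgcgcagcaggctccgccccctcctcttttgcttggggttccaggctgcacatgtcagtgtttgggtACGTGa
Ddit4: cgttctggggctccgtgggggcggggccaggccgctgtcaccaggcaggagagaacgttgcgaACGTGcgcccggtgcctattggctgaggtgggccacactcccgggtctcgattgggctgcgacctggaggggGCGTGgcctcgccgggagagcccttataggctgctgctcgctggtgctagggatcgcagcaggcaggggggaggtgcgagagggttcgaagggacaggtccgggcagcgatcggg
Egln3: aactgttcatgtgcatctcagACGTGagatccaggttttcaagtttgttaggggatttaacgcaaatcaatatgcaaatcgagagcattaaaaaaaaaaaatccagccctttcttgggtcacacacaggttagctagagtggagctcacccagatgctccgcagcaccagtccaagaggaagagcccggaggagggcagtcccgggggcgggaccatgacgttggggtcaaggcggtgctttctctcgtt
Pdk1: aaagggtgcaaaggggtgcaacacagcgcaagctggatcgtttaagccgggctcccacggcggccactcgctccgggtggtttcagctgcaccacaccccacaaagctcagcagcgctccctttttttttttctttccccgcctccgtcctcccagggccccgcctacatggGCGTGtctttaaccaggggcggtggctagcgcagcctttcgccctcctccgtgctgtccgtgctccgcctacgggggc

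Ankrd37 held 4 matches, the nearest beginning 6 bases before the start and an overlapping pair at 155 and 152 bases. Ddit4 held 2 matches, an ACGTG at 187 and a GCGTG at 115 bases, Egln3 a single ACGTG at 229 bases, and Pdk1 a single GCGTG at 78 bases. The window of the second Pdk1 start held none. For Kdm3a, the window of the start farthest upstream held a single GCGTG at 27 bases, and those of its other starts held none. Promoters were found for 28 of the 33 genes, in 37 windows, of which 29 held at least 1 match (78.4%), beside 38.6% of all 32851 windows. For the measured genes it was 17 of 25 windows (68%), beside 56.3% of 8654 windows of all tested genes. Among measured genes the share was 5 of 8 windows for those that rose, 5 of 7 for those that fell and 7 of 10 for those without a call. These classes follow the representative probes, so Hif1a counts among those that fell, though no direction is given for it as a gene. The ACGTG core alone lay in 3 of 8, 5 of 7 and 3 of 10 of these windows, beside 22.4% for all tested genes. A match is only the presence of these letters, and the windows of Hif1a and Cited2, whose representative probes fell, each held the palindrome.

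Among the targets that fell, Mxi1 changed most. Mxi1 encodes a repressor that competes with Myc for their shared partner Max, and it read 9.79, 10.05, 9.82, 10.15 and 10.14 on Villin-Gremlin arrays 1 to 5. The lowest, median and highest wild type values were 10.65, 10.80 and 11.03, so the groups did not overlap. It fell by 0.83 ± 0.12 on the log2 scale (SE, limma adjusted p = 2.97e-04). Its relatives Max and Mxd1 also fell, with log2 fold changes of -1.65 ± 0.19 and -1.17 ± 0.18 (SE, limma adjusted p = 5.20e-05 and 2.94e-04), and Max was at -0.98 without background correction. Mxd4, Mnt and Mlx, the other measured genes of the Myc and Max list, differed by -0.43, -0.36 and -0.04 and did not pass, which made 2 of 5 called, both lower. The probe of Myc itself was not measured.

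Cited2, which takes the coactivators CBP and p300 away from HIF alpha and is itself induced by it, read 11.35, 11.76, 10.55, 11.49 and 11.20 on Villin-Gremlin arrays 1 to 5, and 11.63, 12.02 and 12.17 as the lowest, median and highest wild type values. Villin-Gremlin 2 lay within the wild type range and array 3 lay lowest. It fell by 0.67 ± 0.19 (log2, SE, limma adjusted p = 0.0164), with -0.90 and -0.75 from its other probes. Ep300 and Crebbp, which encode the coactivators, differed by -0.08 and 0.01.

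Vegfa, the main vascular growth factor of the pathway, read 10.50, 10.78, 10.32, 10.50 and 10.56 on Villin-Gremlin arrays 1 to 5. The lowest, median and highest wild type values were 10.66, 10.91 and 11.32, and Villin-Gremlin 2 lay within that range. It fell by 0.44 ± 0.14 (log2, SE, limma adjusted p = 0.0284), and its second probe was at -0.56 (limma adjusted p = 0.0507 over all kept probes). The call was lost without Villin-Gremlin 1, 3 or 4 or wild type 2 or 5 (limma adjusted p = 0.0569, 0.0706, 0.0553, 0.0615 and 0.0596), and without Villin-Gremlin 5 and wild type 1 together (0.0579). Of 12 genes of VEGF and angiopoietin ligands and receptors, 3 were measured and 0 passed: Vegfb at 0.64 ± 0.25 (limma adjusted p = 0.0653), Vegfc at -0.09 and Tek at -0.11.

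The remaining measured targets did not pass. Bnip3l, a receptor that marks mitochondria for autophagy, ran from 11.62 to 11.79 in Villin-Gremlin and from 10.94 to 11.82 in wild type villi (log2 fold change 0.27 ± 0.15 SE, limma adjusted p = 0.169). Wsb1, an adaptor of a ubiquitin ligase, differed by -0.30 (95% interval -0.72 to 0.13) and Narf, a protein that binds processed prelamin A, by 0.04 (95% interval -0.33 to 0.40). Without wild type 1, Bnip3l was at 0.17 and Wsb1 at -0.17. Of 7 measured mitophagy genes on the list of Bnip3 and Bnip3l partners 1 rose, Phb2 by 0.68, and 2 fell, Gabarapl1 at -0.87 and Fundc1 at -0.33 (log2 fold changes, limma adjusted p = 0.00363, 0.0335 and 0.0368). Phb2 lost its call with median scaling, and Gabarapl1 and Fundc1 under 7 and 10 of 23 alternatives.

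Of the 13 genes without a measured probe, 12 had a probe, and these 18 probes gave raw signals of 138 to 294. Bnip3, Pfkfb3, Ero1a, Bhlhe41 and Rora were not above background on any array. For Epas1, P4ha1, P4ha2, Adm, Higd1a, Ppp1r3c and Tgfa the best probe was above background on 1 to 4 arrays. Of these, the vasodilator gene Adm was above background on 1 of 5 Villin-Gremlin and 3 of 6 wild type arrays, and P4ha1, a collagen prolyl hydroxylase, on 2 of 5 and 0 of 6. Loxl2 was not analysed here. Of the receptor genes for adrenomedullin 1 of 4 was measured, Ramp1, which differed by -0.31. Of the EGF receptor and ligand list, to which Tgfa belongs, 6 of 9 were measured and 1 passed, the sheddase Adam17, with a log2 fold change of -0.59 ± 0.13 (limma adjusted p = 0.00401), or -0.37 with the mean of its probes. Of 3 measured collagen hydroxylases 1 rose, Plod3 by 0.45, and of 4 measured glycogen genes 1 fell, Pygl, at -0.97 (limma adjusted p = 0.0219 and 0.00244). Plod3 lost its call with the mean of its probes (0.26, limma adjusted p = 0.155).

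**Figure D4:**
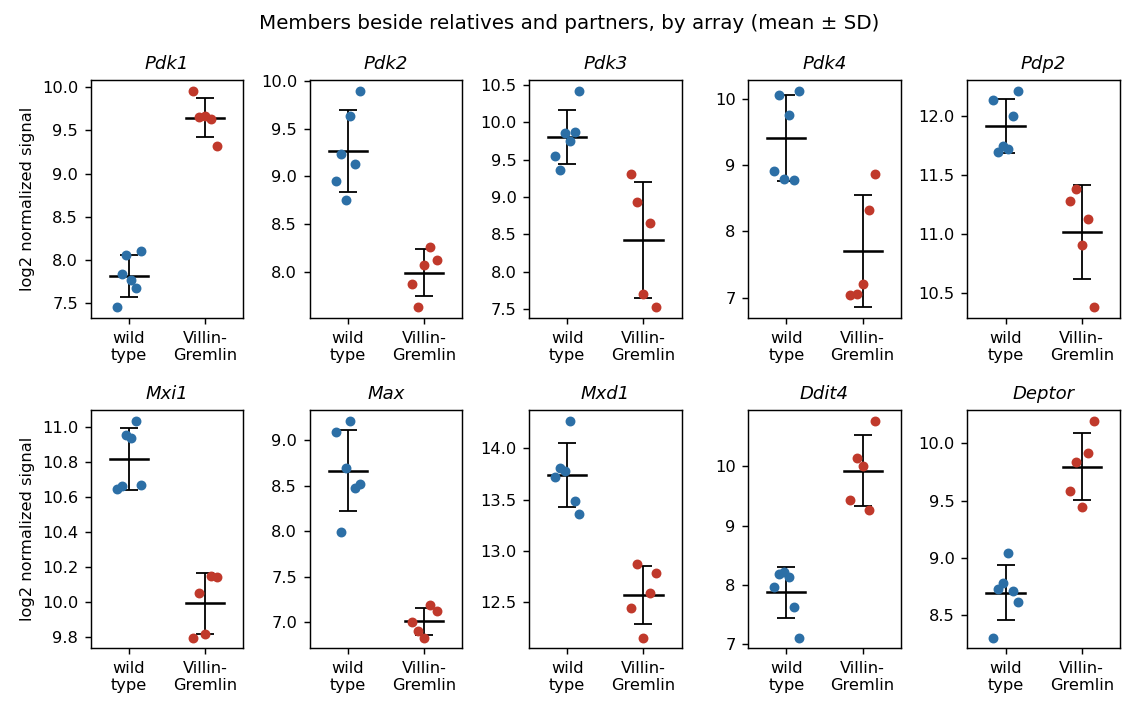
Log2 normalized signal on every array for Pdk1, Mxi1 and Ddit4 beside relatives and partners of each (wild type blue, n = 6, Villin-Gremlin red, n = 5; bars, mean and SD; axes do not start at 0). Pdk1 is higher in Villin-Gremlin villi while Pdk2, Pdk3, Pdk4 and Pdp2 are lower, Mxi1, Max and Mxd1 are all lower, and Ddit4 and Deptor are higher.

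Other known HIF targets, outside the 33 genes, included larger increases. On a list of 24 such genes 14 were measured, of which 6 rose and 3 fell (64.3% called, beside 33.9% of all genes, median 0.31). The 3 that fell include Trf, whose call adds no support, as given below. Car9, the carbonic anhydrase often taken as a marker of hypoxic tissue, rose by 2.88 ± 0.22 on the log2 scale, with its other probes at 3.13 and 2.92 (limma adjusted p = 2.62e-06). Mif, a cytokine, rose by 2.03 ± 0.18 and Fam162a, a mitochondrial protein, by 1.27 ± 0.12 (limma adjusted p = 6.20e-06 and 8.09e-06). Tfrc rose by 1.05 and Edn1 fell, at -1.35 (limma adjusted p = 0.0110 and 0.00607), or -0.64 for Edn1 without background correction. The calls of Sap30 and Jmjd6, which rose, and Insig2, which fell, were lost under 14, 9 and 11 of 23 alternatives. Trf, the transferrin gene, was above background on 0 of 5 Villin-Gremlin and 6 of 6 wild type arrays. In the background-corrected values it was at least 1.38-fold lower in Villin-Gremlin villi (limma adjusted p = 0.00262). It passed the filter through the wild type group alone, so it had to differ and its p-value adds no support. Its log2 fold change was -0.95 in the fit, -0.62 with an offset of 50 and -0.29 without background correction. The last is a smaller fold than that bound.

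Of 13 measured glycolytic targets 6 rose and 1 fell (53.8% called, beside 33.9% of all genes, median 0.51). The 1 that fell is Slc2a3, whose call adds no support, as given below. A positive log2 fold change was seen for 11 of the 13. The glucose transporter Slc2a1 rose by 2.56 ± 0.19, Pfkl, a phosphofructokinase, by 1.87 ± 0.12, and Aldoa by 1.77 ± 0.14 on the log2 scale (SE, limma adjusted p = 1.46e-06, 4.09e-07 and 2.60e-06). A dim second probe of Pfkl differed by 0.39. Slc2a3, another glucose transporter, was above background on 5 of 6 wild type and 0 of 5 Villin-Gremlin arrays. In the background-corrected values it was at least 1.64-fold lower in Villin-Gremlin villi (limma adjusted p = 5.33e-04). It too passed the filter through the wild type group alone, so it had to differ and its p-value adds no support. Its log2 fold change was -1.38 in the fit, -0.91 with an offset of 50 and -0.45 without background correction. The last is a smaller fold than that bound. Ldha, Tpi1, Pkm and Gapdh, equally classic targets of HIF1, differed by 0.11, 0.01, -0.09 and 0.21 and did not pass. Their wild type means were 14.7, 14.5, 14.1 and 14.3, close to the 14.9 of the bright enterocyte marker Apoa1. Whether an increase could show at such bright signals was not tested. Intestinal iron genes known as HIF2 targets were called in 4 of 4 cases, beside 33.9% of all genes. The 4 include Cybrd1, whose call adds no support, as given below. Slc11a2, Cybrd1 and the exporter Slc40a1 rose and Heph fell. Slc11a2, the importer of ferrous iron, rose by 3.43 ± 0.45 on the log2 scale (SE, limma adjusted p = 1.21e-04), though 1 of its 3 kept probes differed by 0.12. Cybrd1, an iron reductase, had 0 of 6 wild type signals above background. In the background-corrected values its increase was at least 6.67-fold (limma adjusted p = 2.78e-04). It passed the filter through the Villin-Gremlin group alone, so it had to differ and its p-value adds no support. Without background correction its log2 fold change was 1.97 against 3.98 in the fit, a smaller fold than that bound. Slc40a1 rose by 3.14 ± 0.58 and Heph, a ferroxidase, was at -0.48 ± 0.14 (log2, SE, limma adjusted p = 0.00127 and 0.0191). Heph lost its call with the replicate block and without Villin-Gremlin 3 (limma adjusted p = 0.0548 and 0.0506).

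Of 10 measured genes among the other HIF regulators 0 rose and 2 fell. Siah1a, a ubiquitin ligase that removes prolyl hydroxylases, and Os9 had log2 fold changes of -0.58 ± 0.16 and -0.58 ± 0.15 (SE, limma adjusted p = 0.0151 and 0.0115). Siah1a was at -0.38 without Villin-Gremlin 5 and wild type 1. Elob, Cul2 and Rbx1, which with Eloc complete the ligase around the von Hippel-Lindau protein, differed by 0.02, -0.11 and 0.22, and Eloc by -0.39 (limma adjusted p = 0.0675).

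**Figure D5:**
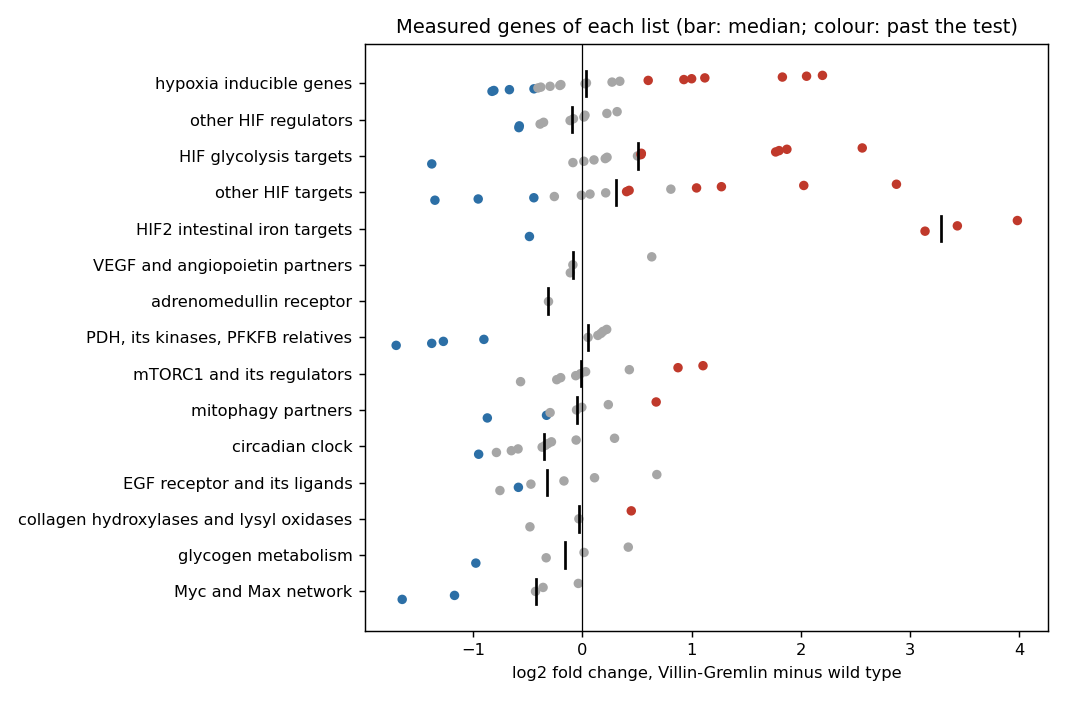
Log2 fold changes (Villin-Gremlin minus wild type) of the measured genes of each list, 1 point per gene, red and blue where the adjusted p was under 0.05, with the list median as a bar. The hypoxia inducible genes lie on both sides of 0 with a median of 0.03, while 3 of the 4 iron genes lie above 3. The points of Cybrd1, Slc2a3 and Trf each rest on a group with no signal above background.

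Array quality and cell makeup stand beside these results as follows. The arrays had median raw signals of 157 to 207, with 13536 to 14808 of the 45281 probes detected. The Grem1 probe read 13.77 to 14.08 on the Villin-Gremlin arrays. It read 8.99 on wild type 5 and 4.98 to 6.38 on the other wild type arrays. On the second principal component, array 5 of the Villin-Gremlin group and array 1 of the wild type group stood apart, and wild type 1 was the lowest wild type array for 9 of the 20 hypoxia inducible genes, as Villin-Gremlin 3 was in its group for 8. Enterocyte markers were measured for 8 of 10 genes with a list mean of 13.5 to 13.9 in Villin-Gremlin and 14.1 to 14.4 in wild type villi, 3 of them lower (Lct, Anpep and Vil1), while the probes of Fabp1 and Fabp2 were not above background on any array. T cell markers fell in 7 of 8 measured genes (list mean 8.08 to 9.05 against 10.1 to 10.9; Cd8a and Gzmb not above background on any array), macrophage and dendritic cell markers in 2 of 3 (6.25 to 7.42 against 7.88 to 8.74), and proliferation markers rose in 5 of 6 (7.62 to 8.42 against 6.53 to 7.36). Their part in the results was not tested, and in bulk tissue fewer cells of a type and less RNA per cell cannot be told apart. Endothelial markers were measured for 1 of 10 genes, Tek, and 7 others, Pecam1 and Cdh5 among them, were not above background on any array. Fibroblast (2 of 10 measured), smooth muscle (4 of 7), Paneth (3 of 7) and red blood cell (3 of 6) markers held 0 called genes, and of 7 goblet cell markers 2 rose and 1 fell. Lists without calls could still spread widely. The list mean of red blood cell markers was 10.3 to 11.9 in Villin-Gremlin and 5.67 to 12.1 in wild type villi. It was 7.2 to 9.1 against 7.9 to 11.3 for smooth muscle, 5.3 to 7.7 against 6.0 to 9.9 for fibroblast and 9.5 to 12.0 against 11.1 to 12.1 for Paneth markers.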

How the data were processed

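The members and lists were chosen with earlier results of these data known. Per the file headers, the deposited signal table holds a mean bead signal, an intensity on a linear scale, and a detection p-value for 45281 probes; its lowest value of 118.6 shows no background subtraction. The authors also deposited processed log2 values (column medians 5.04 to 5.13, not centred by gene), with a normalization that the sources used here do not state. Across probes each of these columns correlated best with the array of the same label (0.988 to 0.991). RNA was extracted with a Qiagen kit and labelled with an Ambion kit, per the labels' protocols.

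Here, limma 3.58.1 (R 4.3.3) corrected the background from the detection p-values with its neqc function, at an offset of 16, followed by log2 and quantile normalization. Probes above background on at least 5 arrays were kept (14203). The platform annotation named 34885 probes with 1 gene symbol, 18 with several and 10378 with none. Genes were fitted with lmFit and eBayes, without covariates, and p-values adjusted over 8234 genes. The fit was tested on simulated data. Groups came from the titles, and the number of arrays limits the precision. All members are accounted for. Of each pathway list up to 4 called genes with the smallest p are named, and of the other HIF targets all called genes. Genes without a call are examples chosen after their values were seen. Alternatives changed the background correction, offset, scaling, detection filter, probe rule, weights or variance prior, used the authors' log2 values, added sex (1 male array in each group, by Y-linked probes) or a block, or left arrays out. Promoter sequences are from RefSeq, build GRCm38.p6.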

Additional observations from a re-analysis of the deposited data

Results flagged for a closer look

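Ndrg1 on wild type 1 read 9.44, while the other wild type arrays read 10.86 to 11.30, a gap of 0.767 of the group's whole range. It was the single flag among 40 groups of values (20 genes in 2 groups) examined for an array far from the rest, where chance flags about 1 in 20. The second Ndrg1 probe was also lowest on that array, at 8.61.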

How the results depend on the processing

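Under the 12 alternatives other than leaving out 1 array, the count of called hypoxia inducible genes ran from 9 (no detection filter) to 12 (array weights), beside 11 in the report. With 1 array left out it ran from 9 to 11, that of all genes from 2383 to 2787, and that of the pathway lists from 30 to 41, beside 37. Ankrd37, Ddit4, Pdk1, Bhlhe40, Egln3 and Mxi1 kept their call and direction under all 23 alternatives. Calls were lost for Hif1a under 5, Vegfa under 6, Ndrg1 under 3, and Kdm3a and Cited2 under 1 each. Hif1a reversed to 0.89 with the mean of its probes and to 2.60 with its other probe, an alternative chosen after seeing the data; both sizes rest on wild type signals below background. Vhl and Narf, which had no call, changed sign with median scaling (-0.015 and -0.0076) and ran from -0.069 to 0.0999 and from -0.055 to 0.20 with 1 array left out. With the replicate number as a block, over 10 arrays, 10 of the hypoxia inducible genes, 2236 of all genes and 32 of the pathway genes were called. Cited2 lost its call there (-0.66, limma adjusted p = 0.0657) and no other hypoxia inducible gene did. No pairing by the numbers in the titles was seen, though weak correlations cannot exclude it. Deviations of same-numbered arrays correlated at -0.198 to 0.111, over 0.1 in 1 of 5 pairs. Of 5 Villin-Gremlin arrays 1 correlated best with the wild type array of its own number. The numbers in the descriptions, a block chosen after seeing the data, gave correlations of -0.151 to 0.102, over 0.1 in 1 of 5 pairs, with 10 hypoxia inducible genes and 2323 of all genes called; Hif1a and Vegfa lost their call (limma adjusted p = 0.0700 and 0.0752) and Egln2 passed (-0.48, 0.0393). Slide and position were not run because the headers give neither. Dim probes limit the sizes: without background correction Hif1a was at -0.47.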
